A study of Cenchrus americanus with 9 samples.

Results

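The comparison described here set lateral roots against primary root tips of pearl millet. The lateral root group was the 3 libraries made from lateral roots borne on the primary root, and the primary root group was the 3 libraries made from the last 5 cm of the primary root, so 6 of the 9 libraries of the experiment entered the contrast. The 3 crown root libraries (5 cm apices) were used to estimate the spread between replicates and as a further reference level. All plants were of the Tift23DB genotype and were grown for 15 days in rhizotrons, thin boxes with a transparent face. The labels name no treatment for any group. Each library pooled the roots of 3 plants, and whether the pools of one root type came from separate rhizotrons is not stated, so the p-values measure the spread between these pools. The length of lateral root that was taken is not given, so root type and distance from the tip cannot be told apart in this contrast. The values came from whole pieces of root, and in such samples fewer cells of a type and less RNA per cell cannot be told apart.

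Lateral roots are formed after germination from inner cell layers of a parent root, behind its tip, and then build a meristem and a cap of their own. They carry much of the absorbing surface of a cereal root system. The apex of a primary root, which forms in the embryo, holds a cap, a zone of dividing cells and a zone of elongating cells, with maturing tissue further back. The table identified genes by accession only, and no annotation pairing these identifiers with names was used here. The labelled tissues were therefore not checked against marker genes, genes are described as groups, and function is given only for the 4 genes that the study annotated.

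The unit was the normalised count, a count per gene divided by 1 factor per library, without correction for gene length. The counts recovered from these values summed to 58752339, 46567706 and 39739052 for replicates 1 to 3 of primary roots, against 45602970, 64062081 and 46551377 for those of lateral roots. Whether one such count stands for 1 read is unknown, so these totals rank the libraries by depth only. The depth ranges of the root types overlapped. On log2(normalised count + 1), Pearson's r across the 19754 genes, which are not independent replicates, was 0.915 to 0.940 between a lateral and a primary root library, 0.953 to 0.970 among lateral root libraries and 0.954 to 0.963 among primary root libraries.

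More genes were called higher than lower in lateral roots. Of 19754 genes, 640 were higher and 213 lower in lateral roots when a change of at least 2-fold and a limma p under 0.01 after Benjamini-Hochberg adjustment across the table were both required, which is 4.32% of the genes tested (3.24% higher and 1.08% lower). The median difference over all genes was -0.004 on the log2 scale, a value that the scaling of the libraries largely sets. The median called gene was 1.76 higher on the log2 scale in the first group, or 3.38-fold, and fell by 1.56 on the log2 scale in the second, or 2.95-fold. The middle 50% of changes ran from 1.34 to 2.41 in genes called higher and from -2.16 to -1.25 in genes called lower. Without the genes listed at 0 throughout a root type, 5 in each group, the medians were 1.75 and -1.55. The called genes thinned out as the change grew. Estimates of at least 4-fold, which for genes listed at 0 depend on the pseudocount, were found in 250 genes called higher and 70 called lower, of at least 8-fold in 86 and 24, and of at least 16-fold in 34 and 10.

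**Figure D1:**
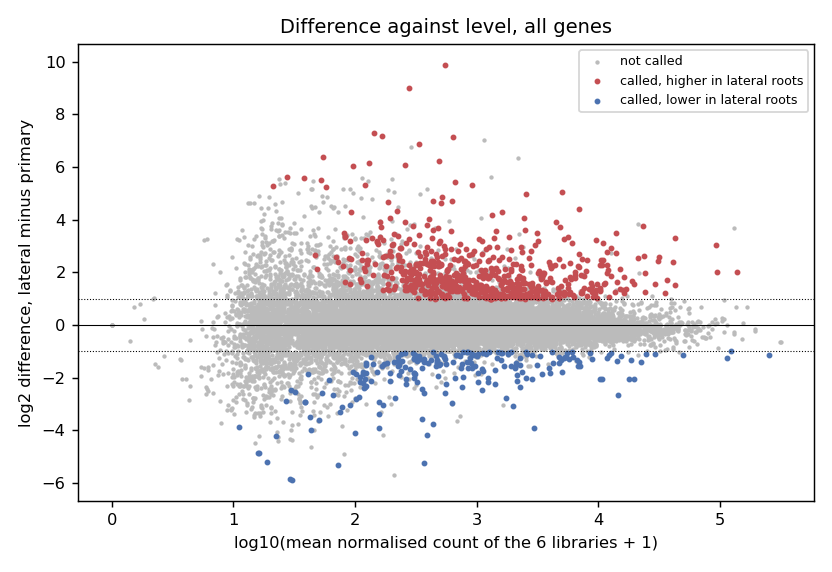
Difference between lateral and primary roots (log2, vertical axis) against the mean level of the 6 libraries (log10 of the normalised count + 1, horizontal axis) for 19754 genes. Each point is a gene, coloured where called (640 higher, 213 lower), and the dotted lines mark a 2-fold change. Uncalled genes fan out widely at low levels and narrow at high levels.

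The count of called genes rested on 3 libraries a side and was sensitive to single libraries. Leaving out replicate 1 or replicate 3 of the primary roots gave 413 and 424 genes, and leaving out replicate 2 or replicate 3 of the lateral roots gave 295 and 343. Without crown root replicate 1, 2 or 3, which enter only the estimate of the spread, 1072, 826 and 758 genes were called. Without any crown root library 939 were called (760 higher, 179 lower), 748 of them shared with the 853. Of the genes called with all libraries, 253 (203 higher, 50 lower) were called in the same direction whichever of the 6 lateral and primary root libraries was left out. The opposite direction was called for 0 of the 853 genes under any setting tried. Lateral and primary root ranges were separate in every called gene, so leaving out a library could not reverse its direction. This 0 is therefore no measure of stability. DESeq2, the method of the study, called 1426 genes on the recovered counts, 842 of them shared with the 853 and in the same direction.

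**Figure D2:**
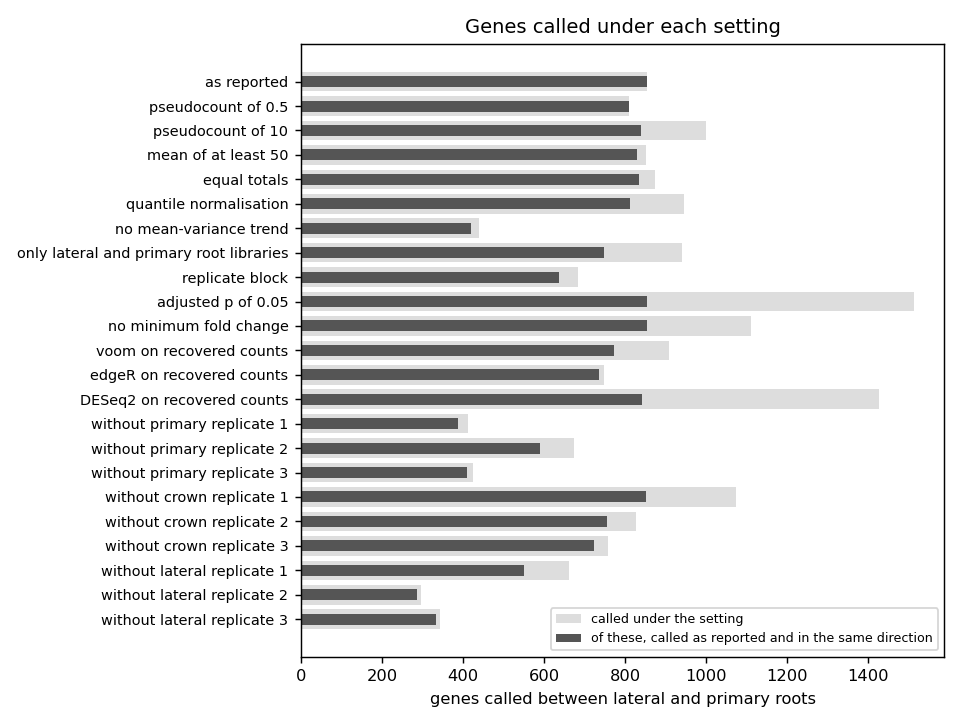
Genes called between lateral and primary roots under each setting (light bars) and, of these, those among the 853 reported and in the same direction (dark bars). DESeq2 called 1426 genes, 842 of them shared, and leaving out lateral root replicate 2 left 295, 286 of them shared.

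The threshold on fold change applies to the estimate and not to its error. When the test itself asked for a change of over 2-fold (limma's treat, adjusted p under 0.01), 23 genes were called, 0.116% of those tested, 17 higher (0.0861%) and 6 lower (0.0304%) in lateral roots. At the other end, the 95% interval of the difference lay within 2-fold in both directions for 11491 genes (58.2%), so for these a change of 2-fold or more is outside the interval. The remaining 7410 genes (37.5%) were neither called nor held within 2-fold. Among the genes not called, 1272 had an estimate of at least 2-fold higher and 804 of at least 2-fold lower in lateral roots, with an error too large for a call. On the adjusted p alone, 1110 genes (5.62%) passed, 794 higher (4.02%) and 316 lower (1.6%). Of these, 257 passed the adjusted p with a change below 2-fold, 154 higher and 103 lower.

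The share of genes called differed with the level of the gene. With genes split by their mean over the 6 libraries, the lowest quartile (means up to 159.6) had 91 called genes of 4939, or 1.84%, and its calls were about even in direction, with 44 higher and 47 lower. The other quartiles had 5.67%, 4.64% and 5.12% called, in order of rising level, with 215, 182 and 199 genes higher against 65, 47 and 54 lower. The median standard error of the log2 difference was 0.534 in the lowest quartile and 0.246, 0.175 and 0.155 in the others. In the same order, the share of genes with an interval within 2-fold was 12.7%, 58.3%, 77.7% and 83.9%. In the lowest quartile 1466 genes had an estimate of at least 2-fold without a call.

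**Figure D3:**
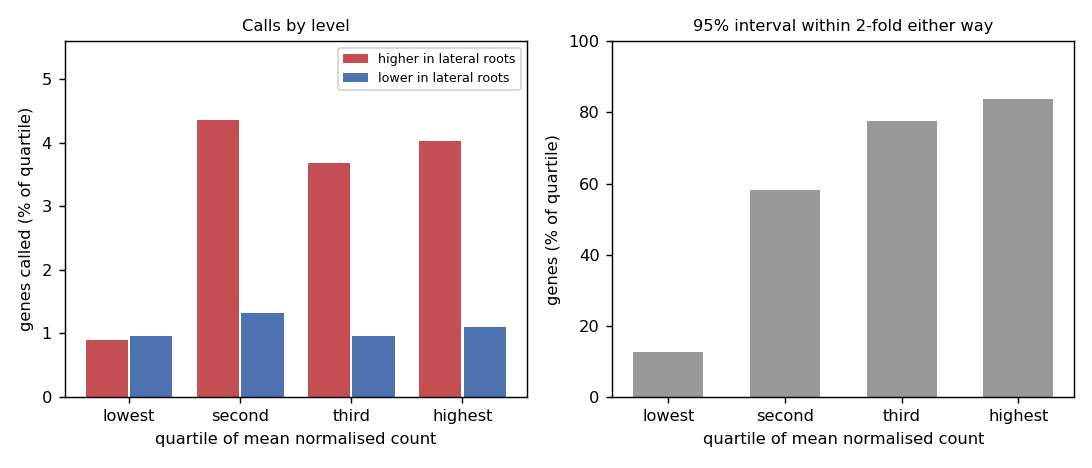
Genes in 4 quartiles of the mean normalised count over the 6 libraries (horizontal axes). Left, the percent of each quartile called higher or lower in lateral roots, and right, the percent whose 95% interval lay within 2-fold either way. Calls higher in lateral roots are few in the lowest quartile (0.891%) and between 3.69% and 4.35% in the others, while the share held within 2-fold rises from 12.7% to 83.9%.

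The called genes made up a small part of the RNA measured, and that part differed between the root types. Since the calls came from the same values, these shares are a description. The 640 genes called higher held 6.31%, 6.79% and 7.01% of the normalised counts in the lateral root libraries, in order of replicate number, and 1.62%, 2.09% and 1.88% in the primary root libraries. The mean share was 6.71% ± 0.359 (SD, n = 3) in lateral and 1.86% ± 0.235 (SD, n = 3) in primary roots. The 213 genes called lower held 1.45%, 1.08% and 1.12% in the lateral root libraries and 3.11%, 2.63% and 3.07% in the primary root libraries. No library of one root type entered the range of the other, which follows from the separate ranges of every called gene and the similar library totals. The most abundant gene called lower alone took 0.326% ± 0.0645 (SD, n = 3) of lateral root counts, against 0.705% ± 0.0510 (SD, n = 3) of primary root counts. The share of the genes called higher was less concentrated, and it was spread over 640 genes against 213. The top 10 genes called higher, picked within each library, held 1.96% ± 0.135 (SD, n = 3) of lateral root counts, out of 6.71% for all genes called higher. The top 10 genes called lower, picked in the same way, held 1.90% ± 0.190 (SD, n = 3) of primary root counts, out of 2.94% for all genes called lower. Among the 100 most abundant genes 9 were called, 5 higher and 4 lower. The share called was 6.5% of the 1000 most abundant genes, 5.12% of the highest quartile of level and 4.32% of all genes. These shares rest on which genes are called. Calls made without lateral root replicate 3 gave a share of 4.07% of lateral root counts for genes called higher. For genes called lower the share was 0.130% without lateral root replicate 2, 0.202% without its replicate 3, and 0.256% and 0.216% when replicate 1 or 3 of the primary roots, and 0.685% when crown root replicate 2, was left out. Calls made without replicate 2 of the lateral roots gave 4.11% for genes called higher.

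In every called gene the lateral and primary root ranges were separate, which also held for 37.9% of all genes (20.5% with lateral roots higher and 17.4% lower). The size of the gap differed. In 416 of the 640 genes called higher (65.0%), the lowest lateral root library was at least 2-fold above the highest primary root library, and in 88 it was at least 4-fold above. Among the 213 genes called lower, the lowest primary root library was at least 2-fold above the highest lateral root library in 96 (45.1%) and at least 4-fold above in 21. A gap under 1.5-fold was left in 21 genes of each group.

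Lateral root replicate 1 and primary root replicate 2 lay closest to the other root type. The lowest lateral root value was that of replicate 1 in 346 of the 640 genes called higher, against 143 for replicate 2 and 151 for replicate 3. The highest primary root value was that of replicate 2 in 314 of these genes, against 130 for replicate 1 and 191 for replicate 3, with a tie in 5. The genes called lower showed the same libraries, with lateral root replicate 1 highest in 131 of 213 and primary root replicate 2 lowest in 113. The median difference from the primary root mean in genes called higher was 1.67 in lateral root replicate 1, 1.83 in replicate 2 and 1.78 in replicate 3. In genes called lower it was -1.36, -1.66 and -1.66. The shifts between replicates were smaller than the difference between the root types, which the choice of these genes from the same values favours. They are therefore no measure of how far the calls depend on single libraries. With lateral root replicate 1 left out, 660 genes were called, 444 higher and 216 lower. With primary root replicate 2 left out, 673 were called, 512 higher and 161 lower.

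**Figure D4:**
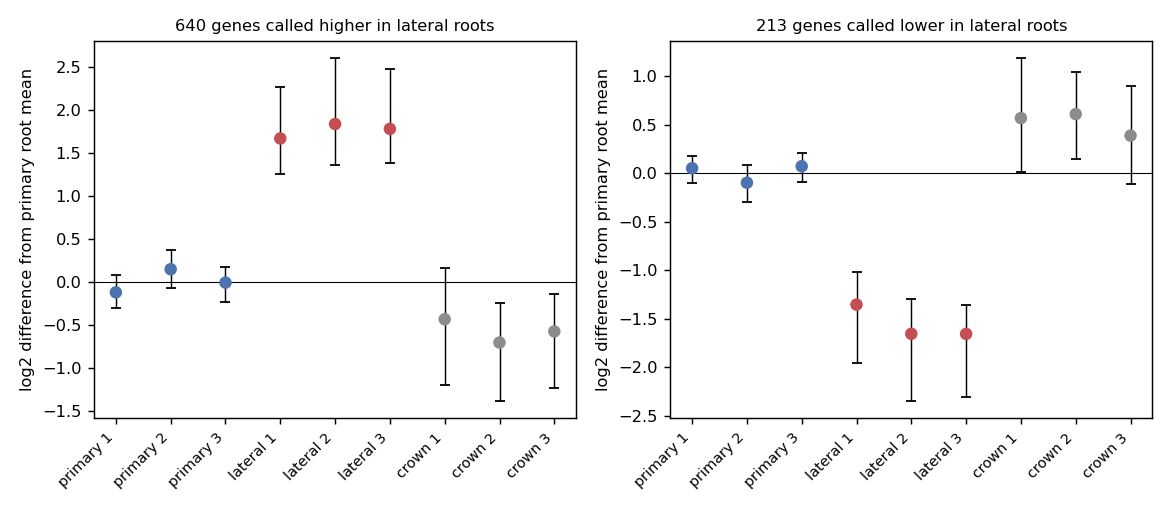
Median log2 difference of each library from the primary root mean, over the 640 genes called higher (left) and the 213 called lower (right) in lateral roots, with bars from the 25th to the 75th percentile of genes. The medians of the crown root libraries, which did not enter the contrast, lie on the far side of the primary root medians from the lateral root medians in both panels.

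In the median of these genes, though not in each gene, crown roots stood on the other side of primary roots. Genes called higher in lateral roots had a median normalised count of 1456 in lateral, 416 in primary and 271 in crown roots. Genes called lower had 290.1 in lateral, 834 in primary and 1311 in crown roots. On the log2 scale, the median of the genes called higher was 1.76 for lateral against primary, -0.59 for crown against primary and 2.35 for lateral against crown roots. For the genes called lower the medians were -1.56, 0.54 and -2.12. These contrasts share libraries pairwise and the genes were chosen by one of them, so the medians are given side by side as a description. By library, the median difference from primary roots in genes called higher was -0.44, -0.71 and -0.58 in crown root replicates 1 to 3. In genes called lower it was 0.57, 0.61 and 0.39.

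Pgl_GLEAN_10010910 had the smallest p of all genes called higher. Its normalised counts were 9637, 10388 and 8235 in lateral root replicates 1 to 3 and 760, 1213 and 985 in primary root replicates 1 to 3. All lateral root libraries were far above all primary root libraries, among which replicate 2 was the highest and replicate 1 the lowest. The difference was 3.27 on the log2(normalised count + 1) scale (standard error 0.219, 95% interval 2.79 to 3.76, adjusted p = 0.000186 from limma), and the ratio of the means was 9.55. It was also among the genes that passed the test for a change of over 2-fold (adjusted p = 0.00229 from limma's treat). The exact two-sided permutation test gave p = 0.1, the smallest that 3 against 3 allow. In crown roots it was lower still, at 269.7, 458 and 379. Its mean exceeded that of 94.8% of the genes in lateral roots and 59.3% in primary roots, a scale that does not correct for gene length.

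Pgl_GLEAN_10006806 had the largest estimated difference. Its normalised counts were 427, 1277 and 1560.5 in lateral root replicates 1 to 3, while each library of primary and of crown roots listed it at 0. Lateral root replicate 1 was well below the others. Its lateral root libraries alone carried it past the study's minimal count sum. Since one group is at 0, no fold change is given. The gene passed the test (adjusted p = 0.000225 from limma), but not with voom on the recovered counts (adjusted p = 0.05002, the highest over the alternatives, of which the lowest was 4.25e-13).

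Among genes called lower, Pgl_GLEAN_10032918 had the smallest p. It had 1418, 828 and 1063 normalised counts in primary root replicates 1 to 3 but 114, 133 and 174 in those of lateral roots. The lateral root libraries were close together and all below the lowest primary root library, replicate 2. The log2 difference was -2.95 (standard error 0.234, 95% interval -3.47 to -2.44, adjusted p = 0.000245 from limma), and the mean was 7.87 times higher in primary roots. Crown root libraries had 1600.3, 1866 and 1336. Pgl_GLEAN_10000564 had the most negative estimate of the genes called. It was listed at 0 in the 3 lateral root libraries and at 59.0, 54.7 and 61.0 in primary root replicates 1 to 3 (adjusted p = 0.000288 from limma), with 60.6, 82.2 and 45.3 in crown roots. Its values in primary and crown root libraries overlapped.

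Genes listed at 0 throughout one root type were few among those in the table. An exact 0 in such a table can be a failed estimate, so these are described as listed at 0. The study set a minimal count sum of 90 across samples, and the lowest recovered sum was 91. A gene at 0 in one root type therefore entered through its other libraries. The numbers of such genes and their lowest means partly reflect this filter. Listed at 0 in all primary root libraries and above 0 in all lateral root libraries were 16 genes, of which 5 were called. Their lateral root means ran from 9.40 to 1088, with a median of 38.7, and the highest after Pgl_GLEAN_10006806 were 549.6 and 107. Crown root libraries were all at 0 for 5 of the 16 and all above 0 for 3. Those 5 passed the filter through lateral roots alone. The reverse, 0 in all lateral root libraries and above 0 in all primary root libraries, held for 9 genes, of which 5 were called. Their primary root means stayed low, from 6.70 to 58.2, and crown root libraries were all above 0 for 8 of the 9.

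The genes that the study annotated in regions associated with leaf ion content did not pass the test between lateral and primary roots. Pgl_GLEAN_10002101, whose protein resembles Expp1, a plasma membrane protein of unknown function in Arabidopsis thaliana, lies in a region associated with potassium. Its normalised counts were 4870, 4797 and 3704 in lateral root replicates 1 to 3 and 5269, 4464 and 5503 in primary root replicates 1 to 3, so the root types overlapped. The 95% interval of the log2 difference ran from -0.51 to 0.12, which leaves out a 2-fold change either way. Pgl_GLEAN_10014595 encodes a putative E3 ubiquitin ligase, an enzyme that marks proteins for breakdown, and had 3391, 3206 and 3386 in lateral and 3510, 3167 and 2981 in primary root replicates 1 to 3. Lateral root values fell inside the primary root range, and the interval ran from -0.29 to 0.39.

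The remaining annotated genes lie in 1 region associated with cadmium. Pgl_GLEAN_10030410, similar to a Golgi protein of Arabidopsis thaliana thought to act in vesicle transport, had 2763, 3270 and 4255 in lateral and 4259, 4086 and 4122 in primary root replicates 1 to 3. Lateral root replicates 1 and 2 were below every primary root library and replicate 3 was not. Lateral root libraries spread more widely, with an SD of 759 against 91.4 in primary roots, and the interval of the log2 difference ran from -0.64 to 0.04. Pgl_GLEAN_10030409, with similarity to glycosyl transferases, which attach sugars to other molecules, was weakly expressed, at 0, 21.8 and 15.6 in lateral and 51.4, 20.3 and 8.89 in primary root replicates 1 to 3. Its interval ran from -4.12 to 0.88, which leaves out neither a large fall nor no change at this level. The adjusted p-values of these genes were 0.402 for Pgl_GLEAN_10002101, 0.869 for Pgl_GLEAN_10014595, 0.223 for Pgl_GLEAN_10030410 and 0.379 for Pgl_GLEAN_10030409 (limma, over all genes), and the exact two-sided permutation tests gave p = 0.3, 0.6, 0.3 and 0.5.

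**Figure D5:**
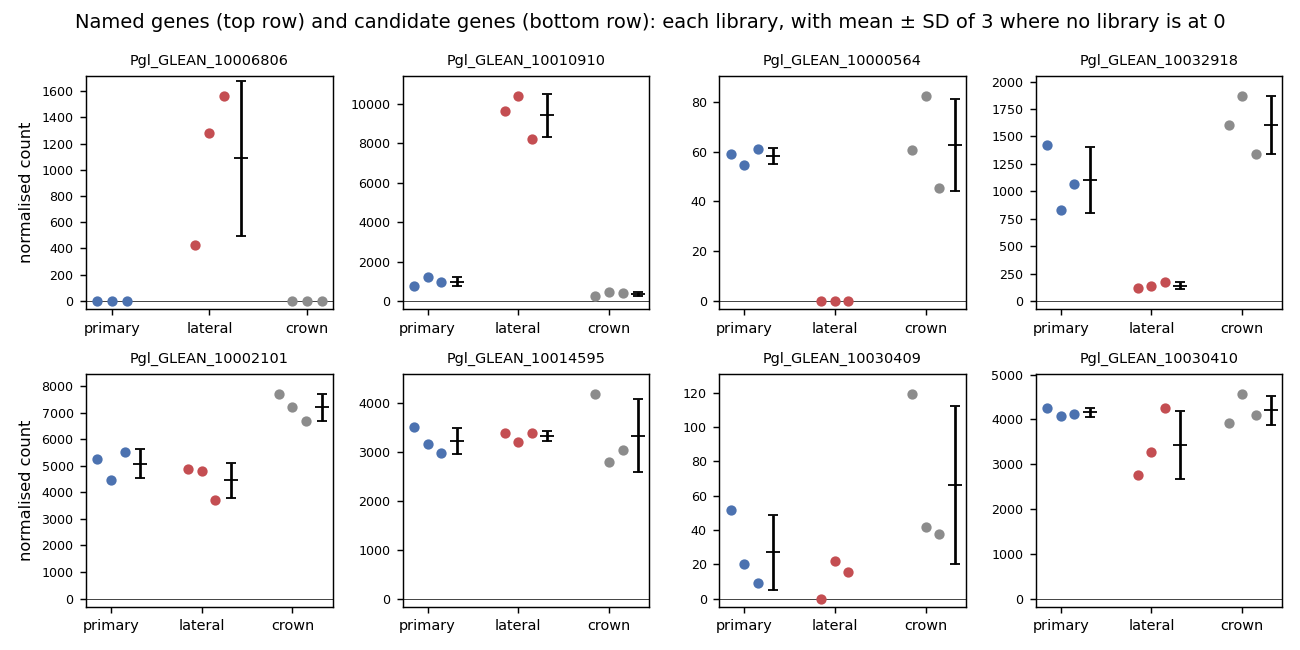
Normalised counts of the genes named (top row) and of the genes annotated in the study (bottom row) in each library, with the mean ± SD (n = 3) beside each root type that has no library at 0. The top row shows no overlap between lateral and primary root libraries, which held for every called gene. Pgl_GLEAN_10010910 had 9637, 10388 and 8235 against 760, 1213 and 985. In the bottom row, lateral and primary root ranges overlap. The crown root libraries of Pgl_GLEAN_10002101 (7702, 7227 and 6670) lie above both. For the other genes of that row, crown root ranges overlap those of primary roots.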

How the data were processed

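Roots were sampled in 9 libraries, 3 for each of 3 root types. The authors obtained read counts with the TOGGLE pipeline, in which they cleaned reads with CutAdapt 3.1, mapped them to ASM217483v2 with Hisat2 2.0.1, assembled transcripts with Stringtie 1.3.4 guided by coding sequences. They normalised counts by the DESeq2 method, with a minimal count sum per gene of 90 across samples. Which step of TOGGLE turned transcripts into counts was not established here. The signal deposited is a normalised count per gene. Every value was a whole multiple of 1 step per library (100% within 0.1 of a step), which gave back counts for the alternatives. Of such counts above 0 and up to 40, 29.8% to 34.0% per library were multiples of 4. This is somewhat more than an even spread would give, so no counting interval is given.

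All 9 libraries entered 1 limma 3.58.1 fit (R 4.3.3), with a trend of variance on level and values taken as log2(normalised count + 1), without further filter, at the study's thresholds. A fold change on this scale understates the change of low genes. Exact permutation tests used scipy 1.17.1. edgeR 4.0.16, DESeq2 1.42.0 and voom were run on recovered counts. The procedure was tested on simulated data, by a check that median estimates lay near the changes put in. That check does not bear on how far the calls depend on single libraries. Between lateral and primary roots, same-numbered replicates were not taken as pairs.

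Members, lists and thresholds were chosen with earlier results of these data known. In each direction, the text names the called gene with the largest change and the called gene with the smallest p, and otherwise only the 4 genes annotated in the study. Alternatives were other pseudocounts (0.5 and 10), scaling to equal totals or by quantiles, a mean of at least 50, no trend, only the 2 root types, a replicate block, other thresholds, other tools and each library left out. No sequence or genome annotation was used here.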

Additional observations from a re-analysis of the deposited data

How the results depend on the processing

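The number of genes called between lateral and primary roots stayed within 1.5 times 853 under 10 of the 14 alternatives that kept all lateral and primary root libraries and left out no single library (one of them left out crown roots as a whole), and under 5 of the 9 that left out 1 library of any root type. It was 438 (352 higher, 86 lower) with no mean-variance trend, 1512 (1115 higher, 397 lower) at an adjusted p of 0.05, 23 (17 higher, 6 lower) when a change of over 2-fold was tested, and 1426 (1054 higher, 372 lower) with DESeq2, in which 2 of the 853 have no adjusted p. Leaving out 1 replicate gave 295 to 1072 genes, 226 to 815 higher and 69 to 257 lower, and moved the share of lateral root counts in the called genes to 4.07% to 7.91% (higher) and 0.130% to 1.40% (lower). The log2 difference of Pgl_GLEAN_10014595, which was not called, ran from -0.0034 (without primary root replicate 3) to 0.11 over these fits. With quantile normalisation, which moved the median of all genes to -0.08, 304 genes were called lower and 67.8% of calls were higher. The causes were not tested.

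With the replicate block 683 genes were called (519 higher, 164 lower), 637 of them among the 853. Same-numbered lateral and primary root libraries did not deviate together (r of -0.16, -0.14 and 0.01 across genes). Between differently numbered libraries r ran from -0.15 to 0.24, and was highest between lateral root replicate 1 and primary root replicate 2. Whether same-numbered pools came from the same plants is not stated, and correlations across genes that are not independent cannot settle it. The main fit did not take the numbers to pair the libraries. In counts of shared genes chosen after seeing the data, 371 of the 853 were called under all 10 settings of scale, pseudocount, filter, trend, libraries and tool, and 238 also with each library left out. The median standard error was 0.534 in the lowest quartile of levels and 0.155 in the highest.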

Other observations

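Genes with consecutive identifier numbers were called together more often than the share of calls among all genes. Of 13089 pairs of genes in the table whose numbers differ by 1, 29 had both genes called higher and 8 both called lower in lateral roots, while 5 had calls in opposite directions. Where the first gene of a pair was called higher (380 pairs), the next was called higher in 7.63%, against 3.12% over all pairs. Where the first was called lower (116 pairs), the next was called lower in 6.90%, against 0.909%. No test was made, consecutive numbers were not checked against genome positions, and near-identical copies that share reads would be counted in such pairs.

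Replicates of the 2 root types varied by a similar amount over all genes, with a median SD of the log2 values of 0.213 in primary and 0.224 in lateral roots, against 0.291 in crown roots. Within the genes called higher in lateral roots it was 0.302 in primary and 0.248 in lateral roots, and within those called lower 0.258 in primary and 0.345 in lateral roots. In both groups the root type with the lower level had the larger SD.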
